A study of Mus musculus with 10 samples.

Results

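The genes of the constitutive proteasome were followed in microglia, the brain's own macrophages, of mice given lipopolysaccharide (LPS), a component of bacterial outer membranes, and of mice given saline. They were taken from a table of gene counts as the genes whose symbols start with Psma to Psmg and a digit, leaving out pseudogenes and the inducible genes Psmb8, Psmb9, Psmb10, Psme1 and Psme2. This rule found 45 of 40789 genes. They comprise 7 genes of the alpha ring, 7 of the beta ring, 6 ATPases and 3 other subunits of the base, 8 lid subunits, 3 chaperones of the base and 4 of the core. A further 3 genes encode activators and a regulator, and 2 encode core subunits of single tissues. The last 2 are not constitutive parts: Psme2b is a copy of the inducible activator gene Psme2, and Psmc3ip encodes a protein of meiotic recombination. Counts without them are given beside the first result.

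All 10 mice were females of 2 to 3 months on the C57BL6/J background with the genotype CX3CR1+/egfp, in which 1 copy of the fractalkine receptor gene carries a green fluorescent reporter. The LPS mice (n = 5) received 4 mg/kg LPS into the peritoneum, and the saline mice (n = 5) received saline. Cortical cells with a high reporter level were sorted 24 h later, and each library came from 1 mouse. The reporter follows Cx3cr1, which other myeloid cells can express too.

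The proteasome degrades proteins that carry ubiquitin chains. Its barrel-shaped core (20S) stacks outer rings of alpha subunits, which gate the entrance, on inner rings of beta subunits, of which Psmb5, Psmb6 and Psmb7 hold the chymotrypsin-like, caspase-like and trypsin-like active sites. The regulatory particle (19S) caps the core: its lid removes ubiquitin, and the ATPases of its base unfold the substrate and feed it into the core. In macrophages, interferons induce Psmb8, Psmb9 and Psmb10, which take the places of the constitutive catalytic subunits and favour peptides for antigen presentation.

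RNA of most constitutive proteasome genes was higher in microglia of LPS mice. Of the 44 members with enough counts to test, 33 rose, 1 fell (Psme4) and 10 were not called, where a call is an adjusted p under 0.05 from edgeR's quasi-likelihood test with Benjamini-Hochberg adjustment over all 13793 genes tested. Over all genes tested, 22.4% were called higher and 22.5% lower, against 75% of the members called higher. Without Psme2b and Psmc3ip, 31 of 42 members rose and 1 fell. The median log2 fold change of LPS over saline was 0.75 over the members and 0.00 over all genes tested; the members ranged from -0.40 to 1.43, and 8 were 2-fold or more higher. In 29 members every LPS mouse lay above every saline mouse, a pattern that 14.1% of all tested genes had; 15.7% of genes had the opposite pattern, and no member did. In bulk RNA of sorted cells, a change in the cells collected and a change in RNA per cell cannot be told apart.

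Gene length moved with this result. LPS libraries held more counts from short genes, and most proteasome genes are short. The tested genes with a relative length, read from the RPKM values the authors deposited, were split into 5 groups of equal size, from group 1 (shortest) to group 5 (longest). Group 1 took 23.9, 20.2, 23.9, 20.3 and 28.9% of the counts of these genes in the LPS libraries, against 16.1, 12.7, 15.4, 12.4 and 17.5% in the saline libraries. LPS and saline mice did not overlap (exact two-sided permutation p = 0.00794, the lowest value possible for this many mice). In length group 1, 44.6% of all genes were called higher and their median log2 fold change was 0.70. It held 29 of the members, with 27 called higher and a median of 0.85. In length group 2, 34.5% of all genes were called higher with a median of 0.29, and 5 of the 8 members there rose with a median of 0.55. In length group 3, 18.9% of genes were called higher with a median of -0.03, and 1 of 6 members (Psmd9) rose with a median of 0.25. Length group 4 held no member, and Psme4 was alone in length group 5, where 44.6% of genes were called lower with a median of -0.46. Across the 44 members, log2 length and log2 fold change had a Pearson r of -0.81 and a Spearman rho of -0.73, and across the 13199 genes with a length -0.38 and -0.48. These are correlations across genes of the same libraries.

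**Figure D1:**
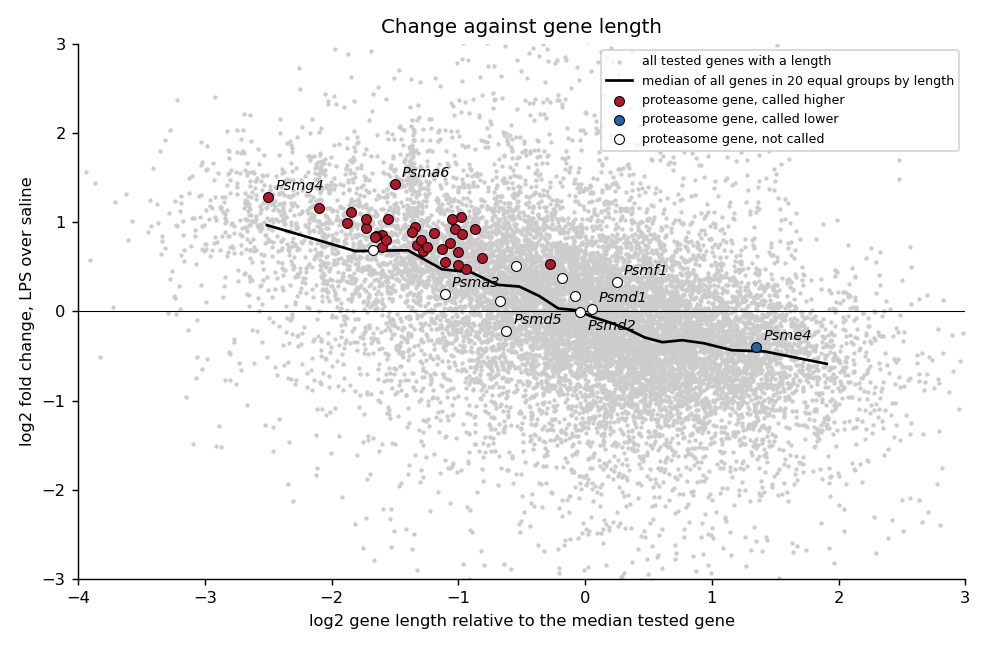
Each grey point is a tested gene, placed by its log2 length relative to the median gene (horizontal) and its log2 fold change of LPS over saline (vertical); points beyond the axes are not drawn. The black line is the median of all genes in groups of equal size by length, and the large points are the proteasome genes by call. Most members sit left of the median length and above the black line, and Psme4 sits at the long end.

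When each library's trend over gene length was taken out of the edgeR fit, 16 of the 44 members were called higher (36.4%), against 19.3% of all 13199 genes, and 1 was called lower, against 18.6% of genes. The members' median log2 fold change was then 0.28. The calls of 18 rising members and the lower call of Psme4 were lost, and 15 of the rising members kept theirs. Psmf1 was called higher anew and Psmd5 lower anew. Those that kept the call were Psma4, Psma5, Psma6, Psma7, Psmb3, Psmb4, Psmc1, Psmc5, Psmd4, Psmd7, Psmd8, Psmd9, Psmd12, Psmd14 and Psme2b. The part of length in the result was not tested beyond this fit, and most genes below are given with their value under it.

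**Figure D2:**
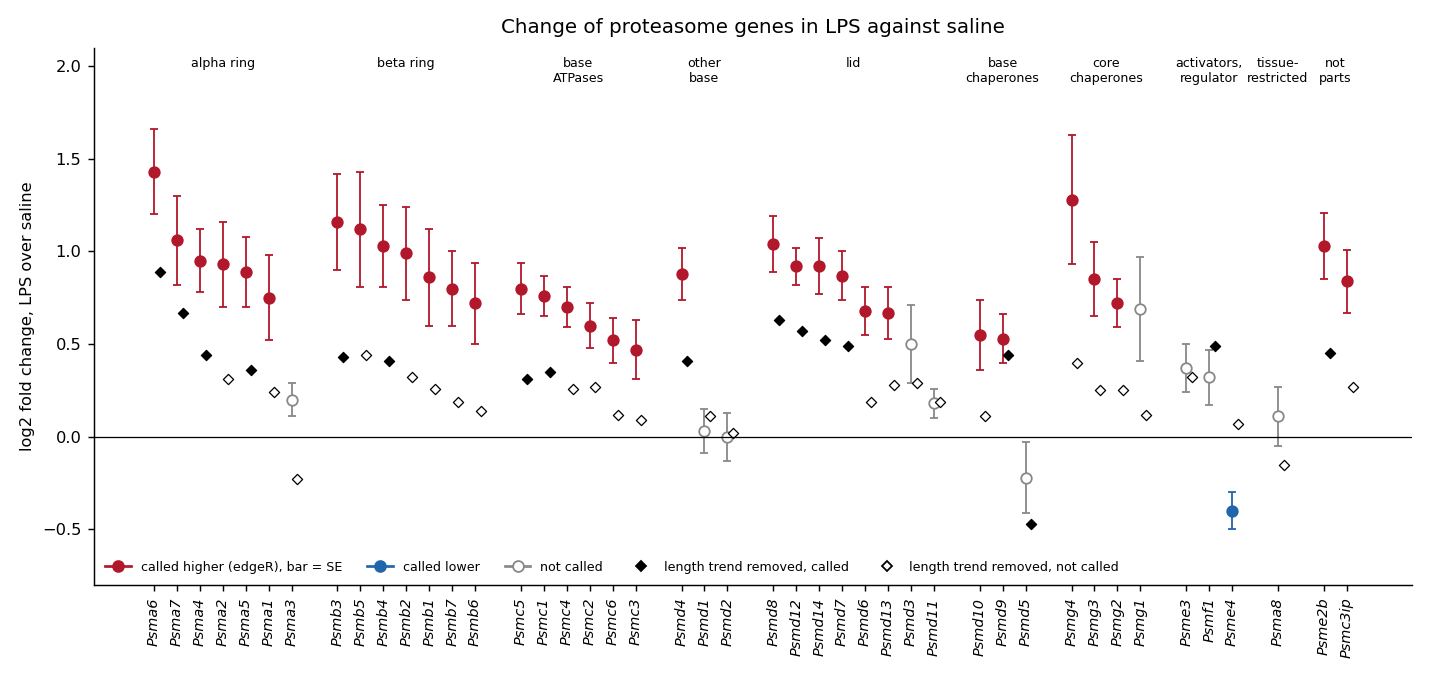
Circles give the log2 fold change of LPS over saline for each tested gene with its standard error (5 mice per group), grouped by role and coloured by the edgeR call; diamonds give the value with the length trend removed, filled where called. All beta ring genes and ATPases lie above 0 as circles, and the diamonds lie lower for every member of these 2 classes.

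Total counts were 12928007 to 15332121 per LPS library and 11577295 to 15274421 per saline library, and the members took 0.590 to 0.778% of them in LPS and 0.358 to 0.477% in saline. Replicate libraries differed by more than counting error (chi-square per degree of freedom of at least 13.4). The microglial identity of the cells was checked on 10 marker genes, which were all detected. Their summed level was 16473 to 30520 CPM (counts relative to the TMM-scaled library size) in LPS and 58502 to 68193 CPM in saline, and 7 of the 10 fell. Summed markers of neutrophils reached 0.538 to 19.9 CPM in LPS and 0 to 0.988 CPM in saline, those of border macrophages 6.72 to 27.9 CPM in LPS and 8.91 to 14.2 CPM in saline, and those of monocytes 5.01 to 16.9 CPM in LPS and 8.9 to 17.1 CPM in saline. Endothelial markers summed to 4.77 to 10.6 CPM in LPS and 48.2 to 72.3 CPM in saline, mostly from Pecam1, with Cldn5 at 0. Oligodendrocyte markers summed to 44.4 to 70.9 CPM in LPS and 51.8 to 84.3 CPM in saline. Sums for astrocytes were 14.1 to 36.5 CPM in LPS and 16.3 to 26.5 CPM in saline. For neurons they were 2.5 to 5.7 CPM in LPS and 3.42 to 7.03 CPM in saline. The part of these markers in the proteasome result was not tested.

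The start regions of the members show which of them carry motifs tied to known regulators of proteasome genes. RefSeq (GRCm38.p6) gave a promoter for 37 members, and the 250 bases before the start were searched on both strands. TGACNNNGC, the core of the antioxidant response element bound by Nfe2l1 and Nfe2l2, was present in 5 members (13.5%; Psmb5, Psmb6, Psmc6, Psmd12 and Psmd9), against 11.5% of 27025 genes. The core of the interferon-stimulated response element, GAAA and again GAAA with any 2 bases between, was present in 3 (8.11%; Psmb3, Psmd4 and Psmd9), against 3.46% of genes. CCAAT, the box bound by NF-Y, was present in 14 (37.8%), against 37.5% of genes. No match of one motif overlapped a match of another in these members. The windows of 60 bases shown lie at chr14:54618008-54618067 on the minus strand for Psmb5, at chr11:107479278-107479337 on the plus strand for Psmd12, at chr5:123228130-123228189 on the plus strand for Psmd9, at chr11:97703246-97703305 on the plus strand for Psmb3 and at chr3:95042660-95042719 on the minus strand for Psmd4. They are shown for a catalytic subunit, a lid subunit, a chaperone, a structural core subunit and a ubiquitin receptor that rose, 5′ to 3′ on the gene's strand. Capitals mark TGACNNNGC in either orientation in the lines of Psmb5, Psmd12 and Psmd9, and the interferon-stimulated core, here on the opposite strand, in those of Psmb3 and Psmd4.
Psmb5: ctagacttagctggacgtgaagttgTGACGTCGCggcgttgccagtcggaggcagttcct
Psmd12: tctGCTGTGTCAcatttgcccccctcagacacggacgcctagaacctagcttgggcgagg
Psmd9: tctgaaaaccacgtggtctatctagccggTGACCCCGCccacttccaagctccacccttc
Psmb3: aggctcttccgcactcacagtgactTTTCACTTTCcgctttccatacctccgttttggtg
Psmd4: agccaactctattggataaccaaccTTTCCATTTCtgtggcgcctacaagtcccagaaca
A match is a run of letters and not a measured binding site.

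In the alpha ring, 6 of 7 genes rose (85.7%, against 22.4% of all genes tested), with a median log2 fold change of 0.93. With the length trend removed, 4 were called (57.1%, against 19.3% of all genes). Psma6 had the highest fold change of all members (Entrez gene 26443, chromosome 12, 55384222 to 55418459 on GRCm38). Its RNA stood at 366, 299.5, 407, 412 and 591 CPM in the LPS mice, against 184, 138, 161, 98.6 and 189 CPM in the saline mice. All LPS mice were above all saline mice, with the highest level in LPS replicate 5 and the lowest in saline replicate 4. The level was 2.69-fold higher (log2 fold change 1.43 ± 0.23 SE, edgeR adjusted p = 9.17e-05), and the log2 fold change was 0.89 with the length trend removed (adjusted p = 6.88e-04, edgeR). Psma7 had a log2 fold change of 1.06 and kept 0.67 in that fit (edgeR adjusted p = 0.00603). Psma4 and Psma5 also kept their calls, at 0.44 and 0.36. Of the 50-base windows of their longest coding transcripts, 31.5% and 55.4% also occur in other genes' transcripts, so their levels are uncertain. Psma1 and Psma2 rose by 0.75 and 0.93 on the log2 scale and were not called with the trend removed, at 0.24 and 0.31.

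Psma3 was the alpha ring gene with the smallest change. It had 33.0, 35.3, 36.7, 30.5 and 34.4 CPM in LPS mice, against 32.4, 24.4, 33.0, 29.0 and 29.3 CPM in saline mice, so the groups overlapped. Its log2 fold change was 0.20 ± 0.09 SE (edgeR adjusted p = 0.229), and -0.23 with the length trend removed (edgeR adjusted p = 0.153). Of the 50-base windows of its longest coding transcript, 22.02% also occur in other genes' transcripts, and the sources used here do not say how such reads were counted.

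In the beta ring all 7 genes rose, against 22.4% of all genes tested. Their median log2 fold change was 0.99 with a range of 0.72 to 1.16. All 7 lie in length group 1, where 44.6% of all genes were called higher with a median of 0.70. No saline mouse reached the lowest LPS mouse in any of the 7, a pattern that 14.1% of all tested genes had. With the length trend removed, Psmb3 and Psmb4 were called (28.6%, against 19.3% of all genes). The 3 catalytic genes were not, nor were the non-catalytic Psmb1 and Psmb2.

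Psmb5 carries the chymotrypsin-like site and had the lowest counts of the beta ring (Entrez gene 19173, chromosome 14, 54614120 to 54617995). It had 15.9, 19.4, 25.2, 14.1 and 31.7 CPM in LPS mice, against 12.7, 5.94, 7.84, 8.36 and 14.03 CPM in saline mice. The groups touched without overlap, LPS replicate 4 standing just above saline replicate 5. The log2 fold change was 1.12 ± 0.31 SE (edgeR adjusted p = 0.00427), and 0.44 with the length trend removed (edgeR adjusted p = 0.117). Of its 50-base windows, 57.1% are shared with Psmb5-ps and other genes, so its level is uncertain.

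Psmb6, the gene of the caspase-like site (Entrez gene 19175, chromosome 11, 70525324 to 70527858), had 329, 232, 323, 233 and 380.4 CPM in LPS mice, against 226, 145, 190.3, 126 and 222 CPM in saline mice. Its groups were separated by a narrow gap between LPS replicate 2 and saline replicate 1. The log2 fold change was 0.72 ± 0.22 SE (edgeR adjusted p = 0.00804), the smallest of the beta ring, and 0.14 with the length trend removed (edgeR adjusted p = 0.423). Psmb7, the gene of the trypsin-like site (Entrez gene 19177, chromosome 2, 38588046 to 38643952), had 130.5, 83.8, 114, 70.0 and 135 CPM in LPS mice, against 64.6, 58.2, 64.5, 51.5 and 68.4 CPM in saline mice. The saline mice lay close together and the LPS mice spread over a wider range above them. Its log2 fold change was 0.80 ± 0.20 SE (edgeR adjusted p = 0.00265), and 0.19 with the trend removed (edgeR adjusted p = 0.195).

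Psmb3 had the largest change of the beta ring, with 60.3, 44.9, 66.4, 53.8 and 94.0 CPM in LPS mice, against 34.9, 19.9, 32.7, 20.5 and 35.2 CPM in saline mice. LPS replicate 5 stood highest and saline replicates 2 and 4 lowest. Psmb3 had a log2 fold change of 1.16 ± 0.26 SE (edgeR adjusted p = 8.26e-04), and 0.43 with the length trend removed (edgeR adjusted p = 0.0329). Its transcript shares 55.8% of 50-base windows with other genes. Psmb4, which shares none, had a log2 fold change of 1.03 and 0.41 with the trend removed (edgeR adjusted p = 0.0332). Psmb1 and Psmb2 rose by 0.86 and 0.99 on the log2 scale, and stood at 0.26 and 0.32 with the trend removed (edgeR adjusted p = 0.169 and 0.0544).

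**Figure D3:**
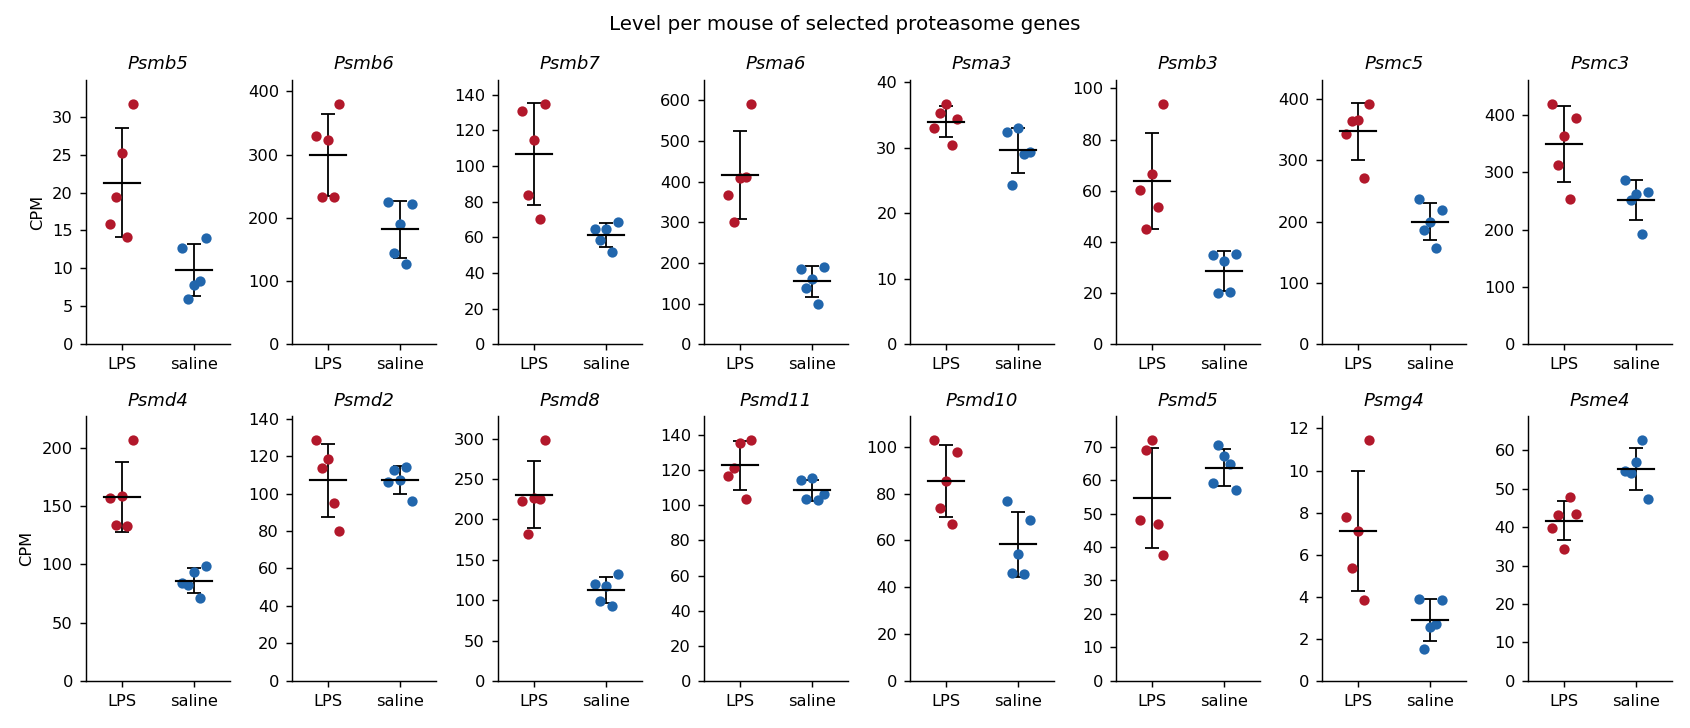
CPM per mouse (points, 5 LPS and 5 saline) with mean and SD for the catalytic genes and for genes with the largest or smallest change of their class; every vertical axis starts at 0 and has its own range. Psma6 separates the groups widely, Psmd2 does not separate them, and Psme4 is lower in LPS.

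In the base of the regulatory particle, all 6 ATPase genes rose, against 22.4% of all genes tested. Their median log2 fold change was 0.65, with a narrow range of 0.47 to 0.80. With the length trend removed, 2 were called (33.3%, against 19.3% of all genes). Psmc5 had the largest change, with 342, 365, 366, 271 and 393 CPM in LPS mice, against 236, 186, 199, 158 and 219 CPM in saline mice. Every LPS mouse was above every saline mouse, and LPS replicate 4 was the lowest of its group. This gave a log2 fold change of 0.80 ± 0.14 SE (edgeR adjusted p = 6.23e-04), and 0.31 with the length trend removed (edgeR adjusted p = 0.0428). Psmc1 was the other ATPase gene called in that fit, at 0.35 (edgeR adjusted p = 0.0229).

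Psmc3 had the smallest change of the ATPases, with 419, 312, 363, 254 and 394 CPM in LPS mice, against 286, 252, 261, 193 and 266 CPM in saline mice. LPS replicate 4 lay inside the saline range. Psmc3 thus had a log2 fold change of 0.47 ± 0.16 SE (edgeR adjusted p = 0.0267), and 0.09 with the length trend removed (edgeR adjusted p = 0.597). Its call was also lost without LPS replicate 1, 3 or 5 and without saline replicate 2 or 4, where the edgeR adjusted p was 0.0543 to 0.0707.

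Among the other base subunits, the ubiquitin receptor Psmd4 rose and the large scaffold subunits Psmd1 and Psmd2 were not called. Psmd4 had 157, 134, 159, 133 and 206 CPM in LPS mice, against 83.7, 82.2, 93.2, 70.9 and 99.0 CPM in saline mice, without overlap. The change on the log2 scale was 0.88 ± 0.14 SE (edgeR adjusted p = 3.66e-04), and 0.41 with the length trend removed (edgeR adjusted p = 0.00532). Psmd2 had 128, 113, 118, 94.7 and 80.2 CPM in LPS mice, against 106, 113, 107, 114 and 95.8 CPM in saline mice. The saline values lay within the range of the LPS values, with a log2 fold change of -0.00 ± 0.13 SE (edgeR adjusted p = 0.985). Psmd1 had a log2 fold change of 0.03 ± 0.12 SE (edgeR adjusted p = 0.872). With the length trend removed, the 2 scaffold genes stood at 0.02 and 0.11. They are among the longer members, both in length group 3. Psmd2 shares 26.4% and Psmd1 8.36% of 50-base windows with other genes.

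In the lid, 6 of 8 genes rose (75%, against 22.4% of all genes tested), with a median log2 fold change of 0.77. With the length trend removed, 4 kept the call (50%, against 19.3% of all genes): Psmd7, Psmd8, Psmd12 and Psmd14. Psmd8 had the largest change, with 223, 182, 226, 225 and 298 CPM in LPS mice, against 120.5, 98.5, 117, 93.4 and 133 CPM in saline mice. LPS replicate 5 was highest, and saline replicates 2 and 4 were lowest. Its log2 fold change was 1.04 ± 0.15 SE (edgeR adjusted p = 1.15e-04), and 0.63 with the trend removed (edgeR adjusted p = 0.00121).

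Psmd12 (Entrez gene 66997, chromosome 11, 107479528 to 107498036) had the smallest adjusted p of all members. Its levels were 188, 195, 212, 167 and 204 CPM in LPS mice, against 101, 93.6, 106, 88.2 and 122 CPM in saline mice, and both groups were tight. LPS over saline gave a log2 fold change of 0.92 ± 0.10 SE (edgeR adjusted p = 7.70e-05), and 0.57 with the length trend removed (edgeR adjusted p = 5.77e-04). Psmd14, the deubiquitinase of the lid, had a log2 fold change of 0.92, and 0.52 with the trend removed (edgeR adjusted p = 0.00327). Its partner Psmd7 had 0.87 and 0.49.

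Psmd11 and Psmd3 were the lid genes not called. Psmd11 had 117, 121, 135, 103 and 137 CPM in LPS mice, against 114, 103, 116, 103 and 107 CPM in saline mice, with overlap and a log2 fold change of 0.18 ± 0.08 SE (edgeR adjusted p = 0.248). Psmd3 had 9.46, 9.45, 10.02, 10.5 and 9.39 CPM in LPS mice, against 3.75, 7.64, 8.40, 7.30 and 7.33 CPM in saline mice. The groups did not overlap, and the 5 LPS mice were within a narrow range, while saline replicate 1 was far below the others. The log2 fold change was 0.50 ± 0.21 SE (edgeR adjusted p = 0.0734); DESeq2 and limma-voom called it higher, as they did 25.3% and 21.2% of all genes.

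Among the assembly chaperones, 2 of 3 for the base and 3 of 4 for the core rose. These are 66.7% and 75%, against 22.4% of all genes tested. Psmd10, which holds ATPases of the base during assembly, had 103, 73.8, 85.5, 67.0 and 97.9 CPM in LPS mice, against 76.9, 46.2, 54.0, 45.5 and 68.8 CPM in saline mice. The groups overlapped, and the log2 fold change was 0.55 ± 0.19 SE (edgeR adjusted p = 0.0210), or 0.11 with the length trend removed (edgeR adjusted p = 0.551). Its call was lost without LPS replicate 1, saline replicate 2 or saline replicate 4. Psmd9 rose by 0.53 and kept 0.44 with the trend removed (edgeR adjusted p = 0.0216).

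Psmd5, the third base chaperone, had 48.1, 68.8, 71.8, 46.9 and 37.6 CPM in LPS mice, against 59.1, 70.3, 67.2, 64.8 and 57.1 CPM in saline mice. LPS replicate 3 lay just above the saline range, LPS replicate 2 inside it and the other LPS mice below it. Its log2 fold change was -0.22 ± 0.19 SE (edgeR adjusted p = 0.307), and it was the member called lower with the length trend removed, at -0.47 (edgeR adjusted p = 0.0414).

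Of the chaperones that build the core rings, Psmg4 had the largest change, with 7.78, 5.38, 7.14, 3.87 and 11.4 CPM in LPS mice, against 3.89, 1.53, 2.59, 2.68 and 3.85 CPM in saline mice. LPS replicate 4 lay just below the highest saline mouse. For Psmg4 the log2 fold change was 1.28 ± 0.35 SE (edgeR adjusted p = 0.00618), and 0.40 with the length trend removed (edgeR adjusted p = 0.243). Psmg1 had the smallest, with 9.71, 10.8, 9.24, 7.92 and 10.2 CPM in LPS mice, against 6.98, 5.43, 3.31, 4.12 and 9.83 CPM in saline mice, and a log2 fold change of 0.69 ± 0.28 SE (edgeR adjusted p = 0.0505). Saline replicate 5 stood apart from its group, inside the LPS range. DESeq2 and limma-voom called Psmg1 higher, as they did 25.3% and 21.2% of all genes. EdgeR with RLE scaling, with a 1 CPM filter or with protein-coding genes alone called it higher too. Psmg2 and Psmg3 rose by 0.72 and 0.85 on the log2 scale. With the length trend removed, the median of the 4 core chaperones was 0.25 and none was called (edgeR adjusted p = 0.123 to 0.737).

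In the edgeR fit with TMM factors and no length term, no gene of the alternative activators and the regulator was called higher; Psme3 had an unadjusted p of 0.0237 there and was called higher by DESeq2, as 25.3% of all genes were, and by edgeR with RLE scaling, with a 1 CPM filter or with protein-coding genes alone. Psme4 encodes a large nuclear activator that opens the core without ATP (Entrez gene 103554, chromosome 11, 30771775 to 30881150). It had 39.7, 43.1, 34.2, 47.9 and 43.4 CPM in LPS mice, against 54.5, 54.0, 57.0, 62.5 and 47.2 CPM in saline mice. LPS replicate 4 lay just above saline replicate 5 and otherwise the LPS mice were lower. The log2 fold change was -0.40 ± 0.10 SE (edgeR adjusted p = 0.0219), or 1.32-fold lower. The call was lost without LPS replicate 3, saline replicate 3 or saline replicate 4, and the value was 0.07 with the length trend removed (edgeR adjusted p = 0.627).

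Psme3, the nuclear relative of the inducible activator subunits, had 35.1, 43.1, 33.1, 41.1 and 33.2 CPM in LPS mice, against 25.6, 25.5, 24.97, 33.1 and 34.2 CPM in saline mice. The LPS mice lay in the upper part of the joint range, with overlap through saline replicates 4 and 5. For Psme3 the log2 fold change was 0.37 ± 0.13 SE (edgeR adjusted p = 0.0522). Psmf1, named for its inhibition of the core in vitro, had a log2 fold change of 0.32 ± 0.15 SE (edgeR adjusted p = 0.0973), and 0.49 with the length trend removed (edgeR adjusted p = 0.0316).

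Core subunits of single tissues were low. Psma8, an alpha subunit of the testis, had 12.97, 12.3, 9.24, 10.6 and 7.98 CPM in LPS mice, against 9.16, 10.8, 12.1, 8.42 and 8.69 CPM in saline mice, with overlap and a log2 fold change of 0.11 ± 0.16 SE (edgeR adjusted p = 0.659). Psmb11, the beta subunit of thymic cortical epithelium, had 2 counts in all LPS libraries together and 1 in all saline libraries together, and was not tested. Outside the constitutive particle, Psme2b had 208, 131, 229, 180.5 and 241 CPM in LPS mice, against 108, 80.0, 95.5, 88.9 and 111 CPM in saline mice, without overlap (log2 fold change 1.03 ± 0.18 SE, edgeR adjusted p = 2.52e-04). It shares 69.3% of its 50-base windows with other genes, Psme2 among them, so reads of the 2 genes may not be separated. Psmc3ip had 6.53, 6.07, 6.68, 6.72 and 6.81 CPM in LPS mice, against 4.81, 2.55, 3.31, 3.00 and 4.63 CPM in saline mice (log2 fold change 0.84 ± 0.17 SE, edgeR adjusted p = 0.0110), also without overlap.

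Summed over the 14 core subunit genes, the level was 2717, 1947, 2831, 2100.0 and 3555 CPM in LPS mice, against 1650.0, 1144, 1386, 972 and 1648 CPM in saline mice. For the regulatory particle, the 17 genes with a Psm symbol were summed, without parts such as Adrm1 that lack one. This sum was 3772, 3442, 3694, 2979 and 3981 CPM in LPS mice, against 2481, 2251, 2356, 1887 and 2458 CPM in saline mice. Neither pair of groups overlapped. The LPS mean was 1.93 times the saline mean for the core and 1.56 times for the regulatory particle, and the difference between these ratios was not tested. Within the particle, the ratio was 1.72 for the lid, 1.56 for the ATPases and 1.23 for the other base subunits. It was 1.08 for Psme3, Psme4 and Psmf1 together. The length trend was not removed from these sums. Without a length term, the median log2 fold change was 0.94 for the core genes and 0.68 for those of the particle. With the trend removed, these medians were 0.34 and 0.28. In that fit they were 0.39 for the lid, 0.27 for the ATPases, 0.11 for the other base subunits and 0.32 for Psme3, Psme4 and Psmf1.

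Mice of a group differed in step across the members. LPS replicate 5 was the highest of its group for 29 of the 44 tested members, and LPS replicate 4 the lowest for 26. Saline replicate 5 was the highest for 22 and saline replicate 4 the lowest for 29. LPS replicate 5 and saline replicate 5 also had the largest share of counts from short genes in their groups, and saline replicate 4 had the smallest in its own. The part of that share in the differences between mice was not tested.

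**Figure D4:**
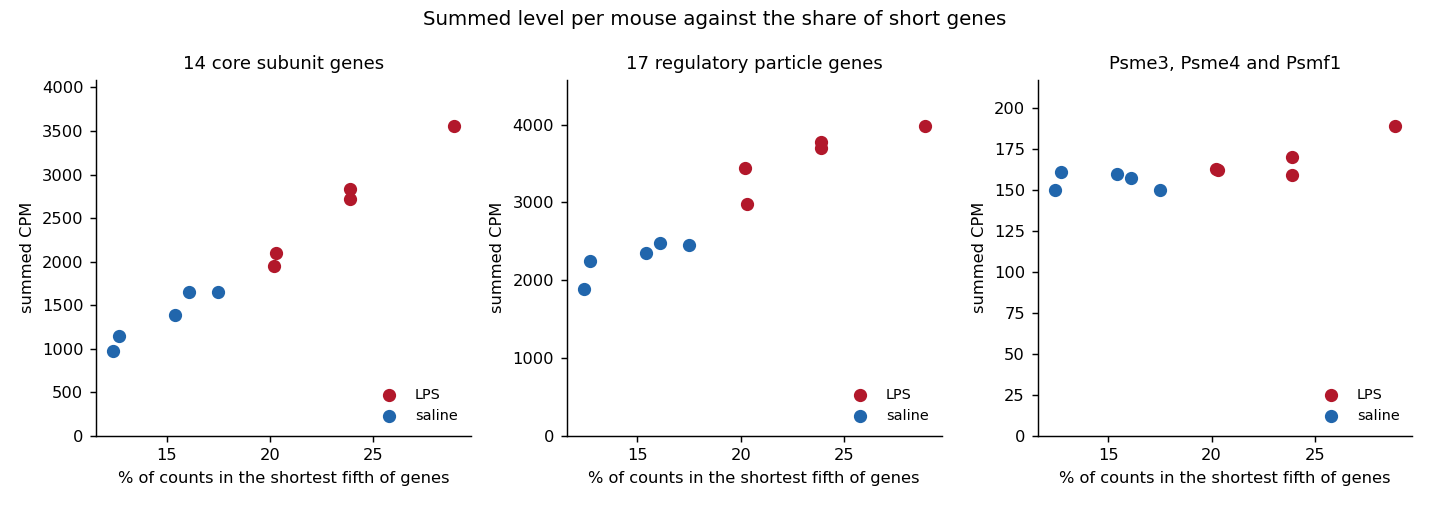
Summed CPM per mouse of the 14 core genes (left), the 17 regulatory particle genes with a Psm symbol (middle) and Psme3, Psme4 and Psmf1 (right). The horizontal axis is the percent of counts that fell in length group 1, the shortest genes, and each point is 1 mouse. Core sums tend to be larger where that share is larger, the LPS mice lying to the right and above, while the sums of Psme3, Psme4 and Psmf1 stay between 149.8 and 188.7 CPM.

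Levels per gene length, in the RPKM values that the authors deposited (reads scaled to gene length and library size), differed widely between subunits that occur in equal copy number in the particle. Within the alpha ring, the group means ran over a 16.1-fold range in LPS mice, Psma3 at 23.6 and Psma6 at 379 RPKM, and over an 8.83-fold range in saline mice, Psma3 at 20.1 and Psma1 at 178 RPKM. The beta ring ran over a 15.4-fold range in LPS mice and a 16.9-fold range in saline mice. Psmb5 was its lowest gene at 24.7 ± 8.48 RPKM in LPS and 11.1 ± 3.92 RPKM in saline (SD, n = 5 each), and Psmb2 its highest at 381 ± 113 RPKM in LPS and 188 ± 46.6 RPKM in saline. The ATPases were much more even, with a 2.04-fold range in LPS mice and a 1.74-fold range in saline mice. In the lid, Psmd3 stood far below the others at 4.59 ± 0.165 RPKM in LPS and 3.18 ± 0.851 RPKM in saline, while the other 7 lid genes had 41.8 to 154 RPKM in LPS and 36.2 to 74.0 RPKM in saline. None of the 50-base windows of Psmd3 is shared with another gene.

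**Figure D5:**
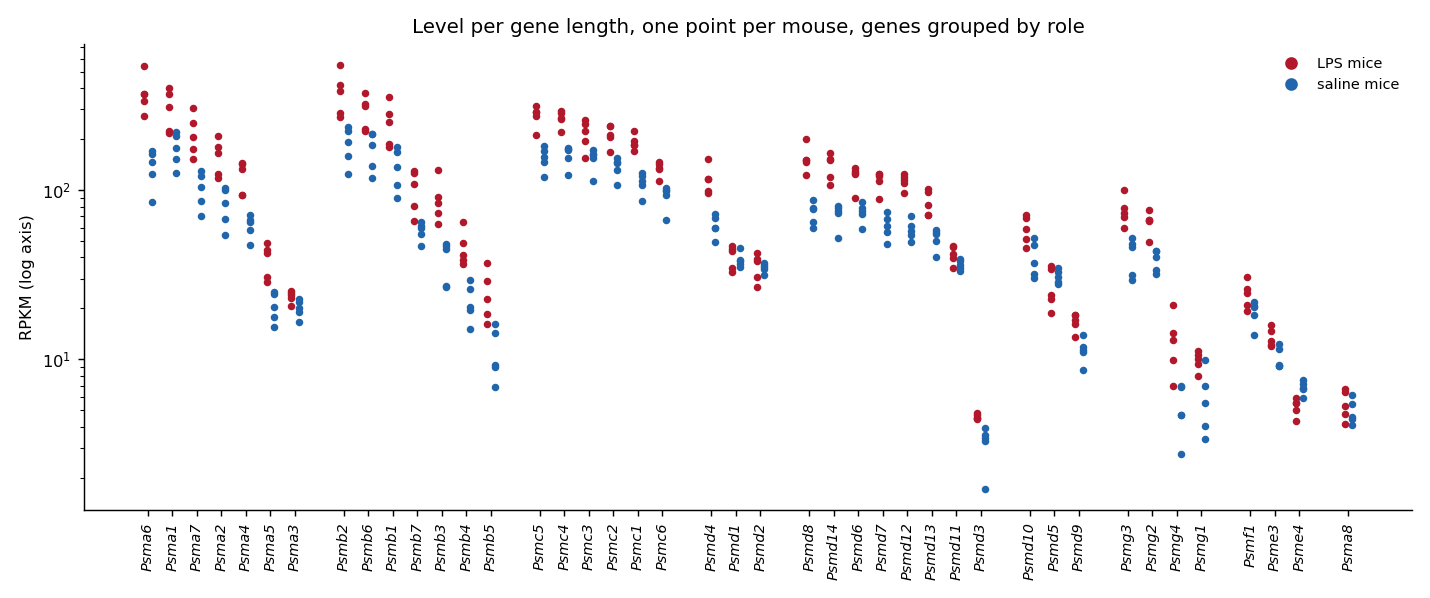
RPKM of each mouse on a log axis, with LPS points left of saline points, for the members grouped by role (alpha ring, beta ring, ATPases, other base, lid, base chaperones, core chaperones, activators and regulator, Psma8). The ATPases lie close together, and Psma3, Psmb5 and Psmd3 lie far below the highest genes of their classes.

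The inducible genes gave the same direction: 5 of 5 rose (against 22.4% of all genes tested), with a median log2 fold change of 1.17. With the length trend removed, 3 were called (60%, against 19.3% of all genes). Psmb8 and Psmb9 were not called there, at 0.36 and 0.09 (edgeR adjusted p = 0.0626 and 0.636). For both genes the CPM of LPS and saline mice overlapped. Psme1 had 328 ± 69.7 CPM in LPS mice and 112 ± 20.1 CPM in saline mice (SD, n = 5 each; log2 fold change 1.55, edgeR adjusted p = 1.25e-05), and Psmb10 385 ± 92.0 CPM in LPS mice and 171 ± 39.7 CPM in saline mice (log2 fold change 1.17, edgeR adjusted p = 2.78e-04). The balance of each inducible catalytic subunit and the constitutive one it replaces was compared as a log2 count ratio within each library. The counts were not scaled to gene length, and Psmb5 and Psmb7 share 57.1% and 28.1% of 50-base windows with other genes. The size of a ratio is thus not the relative level of the 2 genes. The length trend was not removed from the ratios either. With it removed, the log2 fold change was 0.77 for Psmb10 and 0.19 for Psmb7. In that fit Psmb8 and Psmb5 stood at 0.36 and 0.44, and Psmb9 and Psmb6 at 0.09 and 0.14. For Psmb10 over Psmb7 it was 1.52, 1.80, 1.82, 2.21 and 1.98 in LPS mice, against 1.60, 1.28, 1.46, 1.24 and 1.68 in saline mice. The difference was 0.41 ± 0.14 SE (exact two-sided permutation p = 0.0238, 0.0714 adjusted over 3 pairs), and 4 of 5 LPS mice were above all saline mice. The ratio of Psmb8 over Psmb5 was 3.59 ± 0.37 in LPS and 3.86 ± 0.36 in saline (SD, n = 5 each), a difference of -0.27 ± 0.23 SE (exact permutation p = 0.222, adjusted 0.333). Without LPS replicate 1 it was -0.43, and without saline replicate 2 it was -0.16 (adjusted exact permutation p = 0.0833 to 0.619 over all 10 omissions of 1 mouse). For Psmb9 over Psmb6 the ratio was -1.52 ± 0.17 in LPS and -1.43 ± 0.14 in saline, a difference of -0.09 ± 0.10 SE (exact permutation p = 0.389, adjusted 0.389), and -0.02 to -0.14 with 1 mouse left out. No pair passed the adjusted threshold with all mice; with 252 arrangements the smallest p is 0.00794.

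Proteasome parts and helpers without a Psm symbol were followed as 9 genes, of which 5 rose (55.6%, against 22.4% of all genes tested) and 1 fell, with a median log2 fold change of 0.56. With the length trend removed, 3 of the 9 were called higher (33.3%, against 19.3% of all genes) and none lower. Uchl5, a deubiquitinase of the regulatory particle, had 59.0 ± 11.9 CPM in LPS mice and 29.5 ± 4.94 CPM in saline mice (SD, n = 5 each), 2-fold higher in LPS (edgeR adjusted p = 2.57e-04). Adrm1, the ubiquitin receptor that binds Uchl5, had 11.5 ± 1.29 CPM in LPS and 6.87 ± 1.09 CPM in saline, a log2 fold change of 0.74 (edgeR adjusted p = 0.00483). With the length trend removed, Uchl5 kept its call at 0.75 (edgeR adjusted p = 0.00112) and Adrm1 did not, at 0.34 (edgeR adjusted p = 0.110). Pomp, which guides core maturation, rose by 0.66 and stood at -0.09 with the trend removed. The gene that fell was AI314180, named Ecpas in the annotation, an adaptor of the particle, at -0.38 (edgeR adjusted p = 0.0227), and it stood at 0.17 with the trend removed; neither was called there.

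Of 11 genes that encode ubiquitin, activate it or handle ubiquitinated proteins on the way to the proteasome, 3 rose (27.3%) and 1 fell, with a median log2 fold change of 0.29. This share is near the 22.4% of all genes tested that were called higher. Rps27a, which encodes ubiquitin fused to a ribosomal protein, had 9.64 ± 1.32 CPM in LPS mice and 3.56 ± 0.838 CPM in saline mice (SD, n = 5 each), a log2 fold change of 1.43 (edgeR adjusted p = 1.62e-04) without overlap, and 0.78 with the length trend removed (edgeR adjusted p = 0.0436). Ubqln2, a shuttle factor, had 8.08 ± 1.85 CPM in LPS mice and 13.1 ± 1.84 CPM in saline mice and fell by 0.70 on the log2 scale (edgeR adjusted p = 0.0116), also without overlap, and stood at -0.61 with the trend removed (edgeR adjusted p = 0.0336). The polyubiquitin gene Ubb had a log2 fold change of 0.47 and was not called. Sequence shared with other genes was not counted for the genes of this list. The level of Rps27a, at 109 to 154 counts per LPS library and 36 to 75 per saline library, is therefore uncertain.

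Of 5 genes that act on the supply or place of proteasomes, 1 rose (20%, near the 22.4% of all genes tested) and 2 fell. Nfe2l1, the transcription factor that raises proteasome genes when proteasome activity is short, had 20.7 ± 1.96 CPM in LPS mice and 14.2 ± 2.76 CPM in saline mice (SD, n = 5 each), without overlap. Its log2 fold change was 0.55 (edgeR adjusted p = 0.0166), and 0.86 with the length trend removed (edgeR adjusted p = 9.72e-04). Ngly1, the glycanase that processes Nfe2l1, fell by 0.54 and Akirin2, needed for import of proteasomes into the nucleus, fell by 0.62 on the log2 scale (edgeR adjusted p = 0.0169 and 0.0226), and stood at -0.54 and -0.98 with the trend removed, both called lower. Ddi2, the protease that cleaves Nfe2l1, had a log2 fold change of 0.06, and Nfe2l2, the related factor of the oxidative stress response, had 0.27, neither called.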

How the data were processed

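RNA-seq of sorted cortical microglia from 5 LPS mice and 5 saline mice was analysed, grouped by the labels. Raw counts per gene were deposited by the authors; the submitters' processing notes name featureCounts, GRCm38 and mm10. The name that the authors gave their RPKM values includes CRAC. Beyond this name, the sources used here do not give the aligner, the annotation or the strand setting. The authors also deposited RPKM values, which were the product of the count, a library factor and a gene factor (largest log2 departure 0.0262 over 8709 genes); relative gene lengths came from these factors. Per the labels' protocols, 5 ng of RNA was amplified before library construction, with no molecular identifiers named. A last line of the count table with no gene name or counts was dropped.

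Counts of all genes were tested with edgeR 4.0.16 (R 4.3.3; TMM, filterByExpr, quasi-likelihood F test, Benjamini-Hochberg over all genes, threshold 0.05, no covariate). Standard errors came from log2 CPM with a prior count of 2. The catalytic ratios (pseudocount 0.5) used an exact two-sided permutation test. Alternatives used DESeq2 1.42.0, limma 3.58.1 on counts and on log2(RPKM + 1), other scalings and filters, a term for the range of mouse numbers, protein-coding genes only, each mouse left out, and an offset for each library's loess trend over gene length. Depth was 11577295 to 15332121 counts per library. Shared sequence was counted in 50-base windows of the longest coding transcript against GENCODE M21 transcripts, and promoters and coordinates came from RefSeq GRCm38.p6. The edgeR fit without a length term was tested on simulated counts that held no length trend. It recovered 12.7% of 1.5-fold, 60.9% of 2-fold and 95.2% of 4-fold changes, so a gene not called may still have changed. The other fits were not simulated.

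Members, gene lists and tests were chosen with earlier results of these data known. Values in every mouse are given for Psmb5, Psmb6, Psmb7, the members of each class with the largest and the smallest change, and members called lower. Psmd3 and Psmd12, and companion genes beyond the 2 with the smallest adjusted p of each list, were added after their values were seen. Paaf1 of the companion lists was not found in the count table. Some genes of the companion lists are not reported here and are left out of the counts.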

Additional observations from a re-analysis of the deposited data

Results flagged for a closer look

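Among 94 groups of 5 mice examined (each tested member and each catalytic ratio in each treatment), 3 held a mouse whose gap to its nearest neighbour exceeded 0.71 of the group's range, Dixon's limit; chance alone gives about 1 in 20, or 4.7 here. Psmd3 had 3.754 CPM in saline replicate 1, against 7.30 to 8.40 CPM in the other saline mice. Psmd6, a lid subunit, had 117.6 CPM in LPS replicate 4, against 159 to 172 CPM in the other LPS mice. The log2 ratio of Psmb8 over Psmb5 was 4.23 in LPS replicate 1, against 3.32 to 3.56 in the other LPS mice.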

How the results depend on the processing

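Across 23 alternatives, 933 of 1012 values of the 44 tested members kept their direction and their side of the threshold; 30 lost a call, 28 gained one and 21 changed sign. The member count called higher was 16 with the length trend removed and 33 to 36 with the other settings that kept all mice; leaving out 1 mouse gave 31 to 35. The count called lower was 0 without a filter on low counts (edgeR; 1 member at an unadjusted p under 0.05, and 1 called by DESeq2) and 0 to 1 when 1 mouse was left out. Psme4, called lower, changed sign with the length trend removed, to 0.07. The other changes of sign were in uncalled genes: with the length trend removed, Psma3 at -0.23 and Psma8 at -0.15; with library size only, Psmd1 at -0.06; and Psmd2, near 0 throughout, at 0.01 (CPM filter and the RPKM settings), 0.02 (length trend removed), 0.03 (RLE, DESeq2, protein-coding genes) and 0.05 (mouse number term). Leaving out 1 mouse gave -0.02 to 0.10 for Psmd1 and -0.07 to 0.10 for Psmd2. For Psmb10 over Psmb7, leaving out 1 mouse gave differences of 0.33 to 0.50 (adjusted exact permutation p = 0.0476 to 0.143), and the difference passed the threshold without LPS replicate 1, at 0.50; it gave -0.43 to -0.16 for Psmb8 over Psmb5 and -0.14 to -0.02 for Psmb9 over Psmb6, with no call. A term for the range of mouse numbers left 33 members higher and 1 lower. Library scaling moved the median of all genes to at most -0.08. Without Psme2b and Psmc3ip, chosen after seeing the data, 31 of 42 members rose. No paired analysis was possible because the groups share no replicate numbers in the labels. The causes of these changes were not tested. Psmb11 and Psmg4 are limited by low counts, members that share sequence by unknown read assignment, and no library carries molecular identifiers, so counting error is only part of the error.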

Other observations

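Of the proteasome pseudogene rows, which were kept apart from the members, Psmb6-ps2 had enough counts to test. It had 16.9 ± 4.01 CPM in LPS mice and 10.7 ± 2.67 CPM in saline mice (SD, n = 5 each), with overlap, a log2 fold change of 0.66 and an edgeR adjusted p of 0.0254; with the length trend removed it was -0.03. It shares sequence with Psmb6, whose log2 fold change was 0.72. Psmb5-ps had 0.411 ± 0.239 CPM in LPS mice and 0.0794 ± 0.116 CPM in saline mice and was not tested. Zfand5, which stimulates the particle during stress, had the widest spread of the helpers relative to its mean in LPS mice, at 60.8 ± 41.2 CPM in LPS mice and 45.8 ± 11.8 CPM in saline mice. It was not called without a length term, and was called higher with the length trend removed, at 0.82 (edgeR adjusted p = 0.0406). LPS replicate 4 had 130.8 CPM, against 32.4 to 65.1 CPM in the other LPS mice.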
